A study of Mus musculus with 44 samples.

Results

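The genes described here encode the nuclear-coded machinery that copies and transcribes mitochondrial DNA, with Polg, the gene altered in this mouse line, set beside its partners. The members are 10 genes named by their role: Polg, Polg2, Twnk, Ssbp1, Mgme1, Rnaseh1, Top1mt, Polrmt, Tfb2m and Tfam. All 10 were found among the 53715 genes of the RNA table. Peaks were assigned to a member when they overlapped its gene span extended by 5 kb in mm10. This gave 16 of 89792 peaks for open chromatin and 22 of 123818 for H3K27ac in the paraventricular thalamic nucleus (PVT). In the other H3K27ac tables it gave 25 of 141298 peaks in cortex (COR), 17 of 127817 in caudate putamen (CP) and 20 of 132740 in nucleus accumbens (NAC).

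The mutant mice carry Polg(D181A), a form of the mitochondrial DNA polymerase that lacks proofreading, and the line serves as a bipolar disorder model. In this line the mutant protein is made in neurons from a transgene under the Camk2a promoter, as background, so the endogenous Polg gene is still present. RNA came from PVT in 5 groups of 4 adult libraries: euthymic COX+, euthymic COX-, depressive COX+ and depressive COX- mutants, and euthymic COX+ wild type (WT). COX is cytochrome c oxidase, complex IV of the respiratory chain, and the sign gives whether its staining was positive or negative. H3K27ac, the acetylated histone found at enhancers and promoters in use, and open chromatin by ATAC-seq were counted in sorted nuclei stained for NeuN, a protein of neuronal nuclei, with 2 Polg(D181A) and 2 WT libraries in each of 5 tables. The strain is labelled C57BL/6 in 40 of the 44 libraries of the series. The 4 ATAC libraries carry the strain labels C57BL/9 and C57BL/10 (mutant) and C57BL/7 and C57BL/8 (WT). There was no WT group that was depressive or COX-, so state and COX class were compared among mutants only. The labels do not say whether libraries of a group came from separate animals, nor whether animals were pooled, and p-values measure the spread between these libraries, which may be technical.

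Mitochondrial DNA is copied by a small replisome. POLG, with its accessory subunit POLG2, synthesises DNA behind the helicase Twinkle (Twnk), while the single-strand binding protein SSBP1 coats the displaced strand. RNASEH1 removes RNA primers, MGME1 trims flap ends and TOP1MT relaxes the circular template. Transcription, which also primes replication, is carried out by the RNA polymerase POLRMT with TFB2M, which melts the promoter, and TFAM, which bends promoter DNA and packs the genome into nucleoids. All are encoded in the nucleus, and several of their promoters are known targets of NRF1 and of the ETS-family factor NRF2 (GABP).

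Promoter windows of 250 bases before to 50 after the annotated start (RefSeq, GRCm38.p6, the assembly of mm10) were found for 8 of the 10 members, with 9 windows because Twnk has 2 starts. The ETS/GABP letters CCGGAAG, searched on both strands, occurred in windows of 6 of the 8 members, against 8.86% of all 32851 windows and 18.2% of the 12262 windows that overlap an ATAC peak of PVT. The NRF1 motif, 10 letters long, occurred in Polrmt alone, as 2 overlapping matches, against 4.6% of all windows and 11% of those with an ATAC peak. The YY1 letters AAGATGGCG occurred in Mgme1 alone, at -66 to -58, against 1.4% and 3.12%. The 6 windows with the ETS/GABP letters are printed because this is the sequence feature most members share. Each runs 5′ to 3′ along the gene's own strand, and capitals mark the ETS/GABP letters or their reverse complement and, in Polrmt, the NRF1 matches.
Polg: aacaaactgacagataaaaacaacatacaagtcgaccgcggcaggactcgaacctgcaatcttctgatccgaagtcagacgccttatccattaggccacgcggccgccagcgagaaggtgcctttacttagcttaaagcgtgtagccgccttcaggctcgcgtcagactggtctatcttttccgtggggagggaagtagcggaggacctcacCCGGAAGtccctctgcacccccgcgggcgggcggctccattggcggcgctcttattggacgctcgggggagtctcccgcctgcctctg
Polg2: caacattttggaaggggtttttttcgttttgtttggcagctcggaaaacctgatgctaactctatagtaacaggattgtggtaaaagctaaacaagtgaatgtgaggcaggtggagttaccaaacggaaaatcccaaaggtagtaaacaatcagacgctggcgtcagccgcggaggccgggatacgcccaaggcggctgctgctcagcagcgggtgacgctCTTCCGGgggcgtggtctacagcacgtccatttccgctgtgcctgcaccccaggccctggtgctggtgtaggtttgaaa
Twnk: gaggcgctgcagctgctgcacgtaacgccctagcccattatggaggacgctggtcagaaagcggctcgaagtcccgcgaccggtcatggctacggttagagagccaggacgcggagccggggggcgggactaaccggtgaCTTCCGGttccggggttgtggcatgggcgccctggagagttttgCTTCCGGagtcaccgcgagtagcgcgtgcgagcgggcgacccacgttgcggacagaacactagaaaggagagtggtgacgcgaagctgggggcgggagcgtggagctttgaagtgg
Ssbp1: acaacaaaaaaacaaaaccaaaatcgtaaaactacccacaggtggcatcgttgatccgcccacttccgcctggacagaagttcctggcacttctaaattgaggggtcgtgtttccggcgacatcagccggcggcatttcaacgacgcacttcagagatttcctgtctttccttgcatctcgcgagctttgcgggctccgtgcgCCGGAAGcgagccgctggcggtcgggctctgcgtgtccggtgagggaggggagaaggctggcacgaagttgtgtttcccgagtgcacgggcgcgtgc
Tfam: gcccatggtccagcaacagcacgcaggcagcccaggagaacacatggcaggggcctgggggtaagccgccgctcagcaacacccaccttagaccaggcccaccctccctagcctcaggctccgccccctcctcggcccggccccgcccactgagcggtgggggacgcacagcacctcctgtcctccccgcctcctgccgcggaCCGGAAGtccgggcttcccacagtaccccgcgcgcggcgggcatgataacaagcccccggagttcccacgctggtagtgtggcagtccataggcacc
Polrmt: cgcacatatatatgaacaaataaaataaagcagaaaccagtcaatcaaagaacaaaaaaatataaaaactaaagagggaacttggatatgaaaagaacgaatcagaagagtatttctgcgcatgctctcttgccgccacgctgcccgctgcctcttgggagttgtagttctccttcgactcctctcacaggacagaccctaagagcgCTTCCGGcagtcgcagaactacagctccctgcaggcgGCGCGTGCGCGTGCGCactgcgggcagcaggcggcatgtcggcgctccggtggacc
The windows lie at chr7:79466224-79466523 (minus strand) for Polg, chr11:106779488-106779787 (minus) for Polg2, chr19:45006308-45006607 (plus) for the second Twnk start, chr6:40471218-40471517 (plus) for Ssbp1, chr10:71237995-71238294 (minus) for Tfam and chr10:79746532-79746831 (minus) for Polrmt. Counted from the start with no position 0, the ETS/GABP letters stood at -38 to -32 in Polg, -29 to -23 in Polg2, -47 to -41 in both Ssbp1 and Tfam and -43 to -37 in Polrmt. Twnk held them at -110 to -104 and again at -66 to -60. The positions in Polg, Polg2, Ssbp1, Tfam and Polrmt thus all fell between -47 and -23. The NRF1 matches of Polrmt stood at -6 to 4 and at 1 to 10, across the start itself. Tfb2m held none of the 3 motifs in its window. A match describes letters and does not show binding.

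Each of the 8 members had an ATAC peak of PVT overlapping a promoter window, against 37.3% of all windows. For Twnk this was the second window, while the first had no peak of any of the 5 tables. GC content of the 9 windows was between 46.7% and 71.0%, against a median of 52.7% over all windows, and they held 7 to 46 CpG dinucleotides, against a median of 7.

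**Figure D1:**
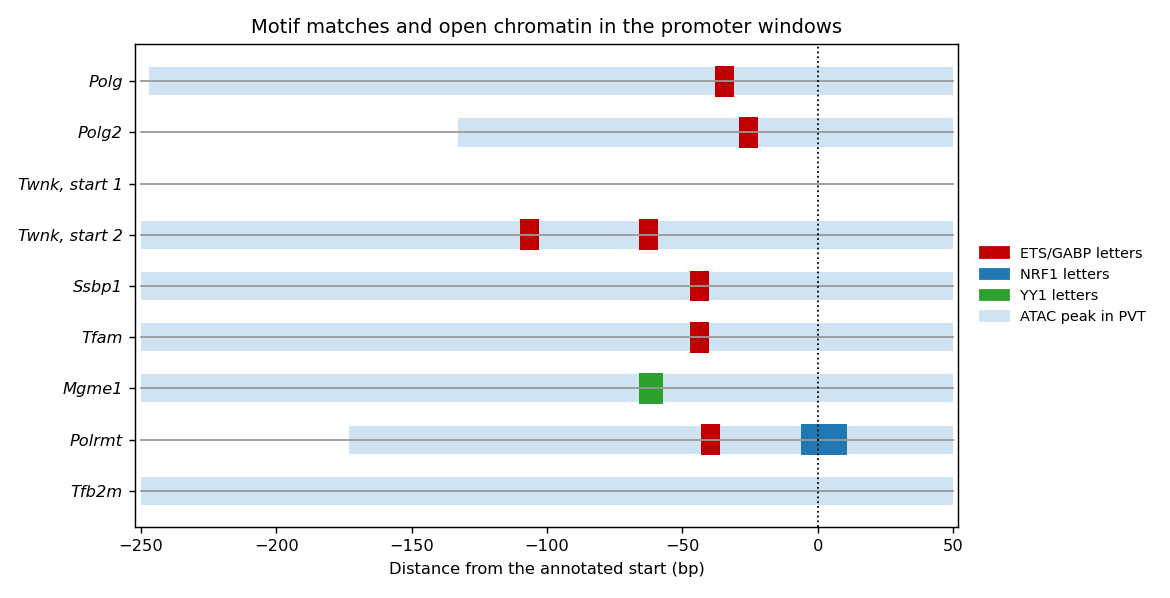
Promoter windows of the 8 members with a RefSeq entry, 1 row per annotated start, drawn against distance from the start in bp. Coloured marks are motif matches and pale bars are ATAC peaks of PVT; 6 members hold the ETS/GABP letters, all but the Twnk matches within 47 bp before the start, and every member has an open-chromatin peak over a window.

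Depth and spread set how firmly these genes can be read. RNA libraries held 26719334 to 115285349 counts, ATAC libraries 2932270 to 8040451, and H3K27ac libraries 52759552 to 146450422 in PVT, 52566179 to 197650530 in COR, 12048787 to 101443484 in CP and 6415127 to 80516545 in NAC. The biological coefficient of variation shared by all genes was 1.36 in RNA, so that libraries of 1 group commonly differed several-fold in a gene, and between 0.442 (ATAC) and 2.20 (H3K27ac in CP) per peak. Neuronal markers were detected in every RNA library, with a summed level of 294.7 to 2392 CPM in mutants and 141.9 to 1607 CPM in WT over 6 genes. The 6 midline thalamic markers summed to 75.4 to 1714 CPM in mutants and 111.3 to 2844 CPM in WT, with Gbx2 at 0 in 3 mutant libraries. Astrocyte markers, which belong to another cell type, summed to 65.8 to 874.5 CPM in mutants and 37.5 to 329.5 CPM in WT. Cortical and striatal markers summed to 11.01 to 921.7 CPM in mutants (median 73.6) and 14.4 to 56.6 CPM in WT (median 29.9). The part of these marker groups in the results below was not tested. In H3K27ac, 4 midline thalamic markers summed to 1642 to 2056 CPM in the 4 PVT libraries and to at most 677.6 CPM in the libraries of the other regions. There, 4 markers of oligodendrocytes, another cell type, summed to 407.6 to 448.3 CPM in PVT and 368.0 to 617.9 CPM in the other regions. In ATAC, 3 oligodendrocyte markers summed to 173.4 to 224.0 CPM. In RNA, oligodendrocyte markers summed to 3.95 to 177.2 CPM in mutants and 16.2 to 279.6 CPM in WT. Microglial markers summed to at least 4.70 CPM and endothelial markers to at least 41.9 CPM in every RNA library. CPM are counts scaled by TMM library sizes, where TMM stands for the trimmed mean of M values.

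In TMM-scaled CPM, Polg RNA was high in most mutant libraries and low in all WT libraries, but not in every mutant library. Polg lies on chromosome 7 at 79446231 to 79467911 (ENSMUSG00000039176, minus strand). Its level was 0.559, 2.40, 0.825 and 199.9 CPM in the euthymic COX+ mutants and 56.3, 35.8, 139.6 and 7.75 CPM in the euthymic COX- mutants. It was 102.8, 12.2, 65.5 and 7.32 CPM in the depressive COX+ mutants and 94.3, 0.861, 197.2 and 1.58 CPM in the depressive COX- mutants. In WT it was 3.02, 0.946, 3.69 and 3.02 CPM. Thus, as scaled, 11 of the 16 mutants exceeded every WT library and 5 CPM, while 5 lay within or below the WT range, 3 of them in the euthymic COX+ group. This order depends on the scaling. WT library 4 held 322 Polg counts of 27607219, given as 3.02 CPM. Library 4 of the euthymic COX- mutants held 104 of 107075336, given as 7.75 CPM, so by plain library totals their order is reversed. A gene with at least 11 mutants above the top WT value was uncommon: 187 of the 28446 tested genes, or 0.657%. Means were 50.9 ± 99.3, 59.9 ± 56.8, 47.0 ± 45.6 and 73.5 ± 93.4 CPM in the 4 mutant groups in the order above, and 2.67 ± 1.19 CPM in WT (SD, n = 4 each). The table counts reads per gene, so RNA of the transgene and of the endogenous gene are not separated. In bulk libraries, fewer cells that express a gene and less RNA per cell cannot be told apart.

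By edgeR's quasi-likelihood test the Polg difference did not pass an adjusted p of 0.05. Over all mutant groups against WT the log2 change was 4.41 (SE 1.70, adjusted p = 0.141), and for euthymic COX+ mutants against WT it was 4.25 (SE 1.79, adjusted p = 0.273). DESeq2 called both, at 4.75 (adjusted p = 0.00362) and 4.78 (adjusted p = 0.0238), whereas limma voom gave 2.73 (adjusted p = 0.856) over all mutants. The change in the euthymic COX+ group rested on the library at 199.9 CPM: without it the log2 change was -1.06, and over all mutant groups it was then 3.09 (adjusted p = 0.251). Among mutants, neither COX class nor state passed: the log2 change of Polg was 0.44 (SE 1.11) for COX- against COX+ and 0.09 (SE 1.11) for depressive against euthymic. Polg had an even count in all 20 libraries, and it was the only such gene among the 28008 with counts in at least 15 libraries. The other members had even counts in 8 to 12 libraries.

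**Figure D2:**
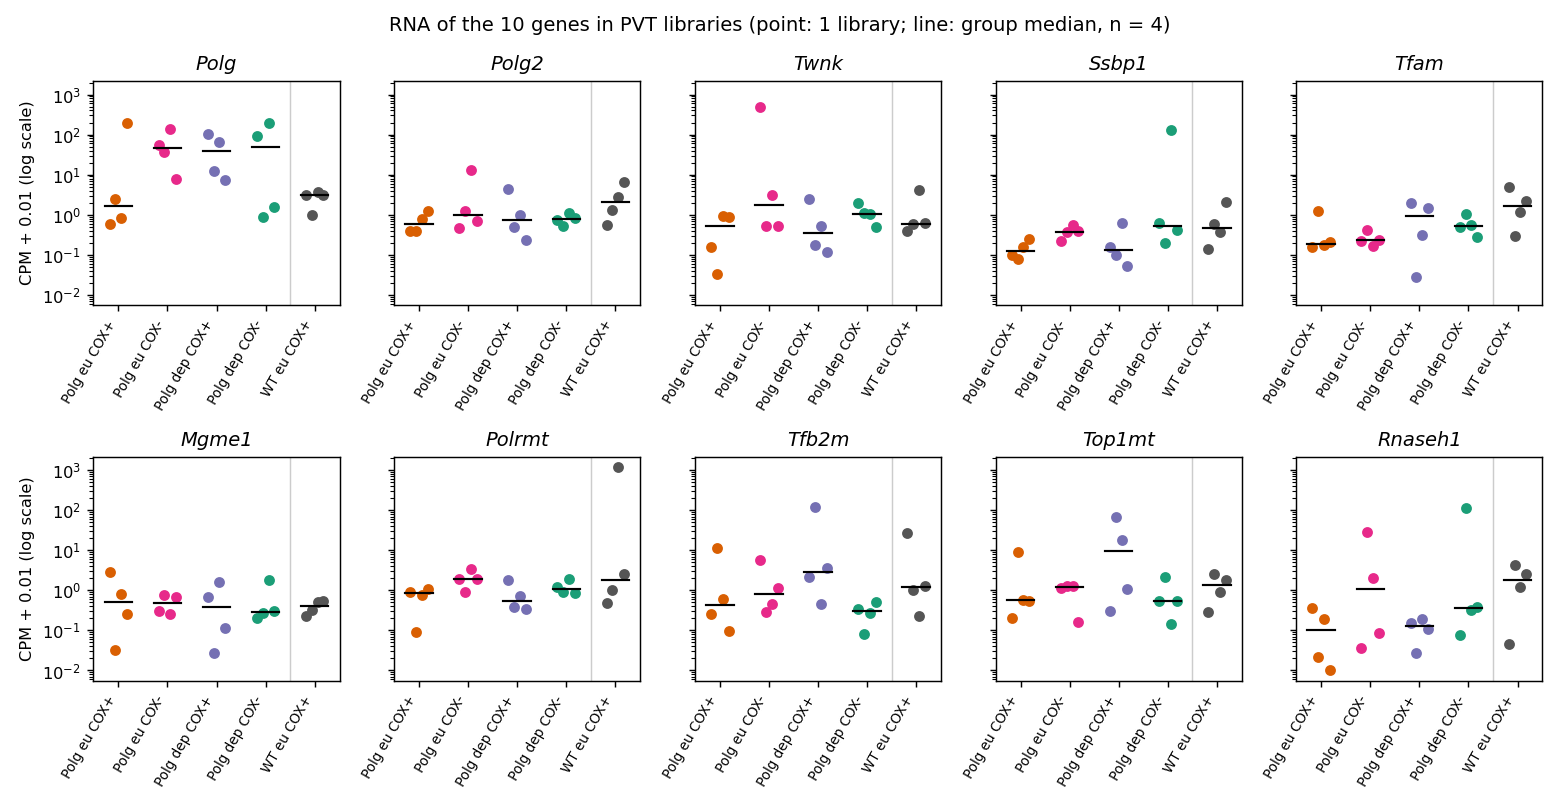
RNA level of the 10 genes, as CPM plus 0.01 on a log axis, in the 4 mutant groups (left of the grey line) and WT (right); each point is 1 library and each short line a group median, n = 4. Polg is high in 11 mutant libraries, and for 6 partners 1 library holds over 50% of the summed CPM.

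For the replisome partners, mutant and WT values overlapped. Polg2, the accessory subunit that clamps the polymerase to DNA (chromosome 11, 106768204 to 106779537, ENSMUSG00000020718), stayed within 0.217 to 12.7 CPM in the 16 mutant libraries (median 0.748) and 0.542 to 6.58 CPM in the 4 WT libraries (median 2.05). The groups overlapped, and 1 mutant library lay above the highest WT library. The log2 change over all mutants against WT was -1.09 (SE 0.99, adjusted p = 0.667).

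Twnk, the helicase (chromosome 19, 45005663 to 45012764, ENSMUSG00000025209), reached 489.8 CPM in 1 euthymic COX- mutant library. The other 3 libraries of that group had 0.512, 3.02 and 0.522 CPM, the other 12 mutant libraries had at most 2.45 CPM, and the WT libraries had 0.380, 0.568, 4.12 and 0.609 CPM. The level of the remaining libraries therefore overlapped between mutants and WT. The log2 change of COX- against COX+ in euthymic mutants was 7.97 (SE 2.19, adjusted p = 0.123), and in depressive mutants it was 0.50 (SE 1.63, adjusted p = 0.902). The interaction of COX class and state was -7.48 (SE 2.55, adjusted p = 0.0908) and did not pass either.

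Ssbp1, the single-strand binding protein (chromosome 6, 40471414 to 40481823, ENSMUSG00000029911), likewise had 129.7 CPM in 1 depressive COX- mutant library. The other 3 of that group had 0.627, 0.191 and 0.408 CPM, the other 12 mutant libraries 0.0433 to 0.604 CPM, and the WT libraries 0.127, 0.568, 0.355 and 2.12 CPM. The log2 change of COX- against COX+ in depressive mutants was 7.19 (SE 2.03, adjusted p = 0.132). The same library gave the difference between depressive and euthymic COX- mutants, at 6.45 (SE 1.97, adjusted p = 0.0862).

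Rnaseh1, the primer-removing ribonuclease (chromosome 12, 28649601 to 28659592, ENSMUSG00000020630), had its 3 highest mutant values in COX- libraries. It stood at 114.4 CPM in 1 depressive COX- library and at 29.4 and 2.08 CPM in 2 euthymic COX- libraries. The 8 COX+ mutant libraries held at most 0.353 CPM, and 1 of them held no count. The remaining 5 COX- mutant libraries had 0.0271 to 0.369 CPM, and the WT libraries had 0.0346, 4.23, 1.21 and 2.49 CPM. The log2 change of COX- against COX+ mutants, averaged over states, was 6.91 (SE 1.70, adjusted p = 0.0538), just above the threshold. No gene had a smaller adjusted p in that comparison, but the value was shared, for example by Mterf1b, a gene of mitochondrial transcription. Rnaseh1 passed in edgeR with no filter on low counts (adjusted p = 0.0180) and with a stricter filter (0.0469). It also passed with DESeq2 size factors (0.0474) and without genes over 1% of a library (0.0471). In these settings 283 to 1628 genes were called in all. Rnaseh1 did not pass by limma voom, and neither it nor any other member passed in edgeR with any 1 of the 20 libraries left out. DESeq2 gave no adjusted p for it.

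The remaining replication genes were low or scattered. Top1mt, the mitochondrial topoisomerase (chromosome 15, 75657033 to 75678800, ENSMUSG00000000934), had 69.6 and 18.3 CPM in 2 depressive COX+ mutant libraries and 9.00 CPM in 1 euthymic COX+ mutant library. All other mutant libraries had 0.134 to 2.11 CPM, and the WT libraries 0.277 to 2.52 CPM. Its log2 change for COX- against COX+ in depressive mutants was -4.75 (SE 1.77, adjusted p = 0.149), which DESeq2 called (adjusted p = 0.00423). Mgme1, the flap exonuclease (chromosome 2, 144270904 to 144281227, ENSMUSG00000027424), had 0.0181 to 2.91 CPM in mutants and 0.219 to 0.543 CPM in WT. It was the partner with most mutant libraries above the highest WT library, 7 of 16, a count that 8.33% of genes reached, and its log2 change over all mutants against WT was 0.75 (SE 1.15, adjusted p = 0.812).

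Among the transcription genes, Polrmt was the member whose difference from WT passed, and it rested on 1 WT library. Polrmt, the mitochondrial RNA polymerase (chromosome 10, 79736125 to 79746604, ENSMUSG00000020329), had 0.0809 to 3.35 CPM in the 16 mutant libraries. In WT it had 0.473, 1.0095, 1212 and 2.53 CPM, and the third of these libraries held 17071 counts. Apart from that library, the mutant and WT values overlapped. The log2 change over all mutants against WT was -8.12 (SE 1.09, adjusted p = 1.54e-05). Without WT library 3 it was -0.29 (adjusted p = 0.947), and limma voom gave -2.39 (adjusted p = 0.884). The comparison of euthymic COX+ mutants with WT gave -8.75 (SE 2.08, adjusted p = 0.180).

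Tfb2m, the promoter-melting factor (chromosome 1, 179528052 to 179546305, ENSMUSG00000026492), had 122.2 CPM in the same depressive COX+ mutant library that held the highest Top1mt value. Further high values were 11.7 CPM in a euthymic COX+ mutant, 5.76 CPM in a euthymic COX- mutant and 27.3 CPM in a WT library. The 4 depressive COX- libraries were all low, at 0.0718 to 0.514 CPM, and the log2 change of COX- against COX+ in depressive mutants was -6.75 (SE 2.18, adjusted p = 0.132). Tfam, the packaging and promoter factor (chromosome 10, 71225468 to 71238328, ENSMUSG00000003923), was low throughout, at 0.0181 to 1.94 CPM in mutants (median 0.283) and 5.03, 0.284, 1.14 and 2.14 CPM in WT. No mutant library exceeded the highest WT library. Its log2 change over all mutants against WT was -2.11 (SE 0.93, adjusted p = 0.244).

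Seen across the 20 libraries, Polg and its partners thus differed in how their reads were spread. The highest library held 98.1% of the summed CPM of Polrmt, 96.2% for Twnk, 94.7% for Ssbp1, 73.5% for Rnaseh1, 68.0% for Tfb2m and 62.0% for Top1mt. It held 33.3% for Polg2, 28.8% for Tfam, 23.3% for Mgme1 and 21.4% for Polg. A single library held over 50% for 6 of the 10 members, and the background was 40.9% of all tested genes, with a median share of 44.0%. For Polg, 91.3% of genes had at least as high a share in 1 library, so its reads were spread over more libraries than those of most genes.

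**Figure D3:**
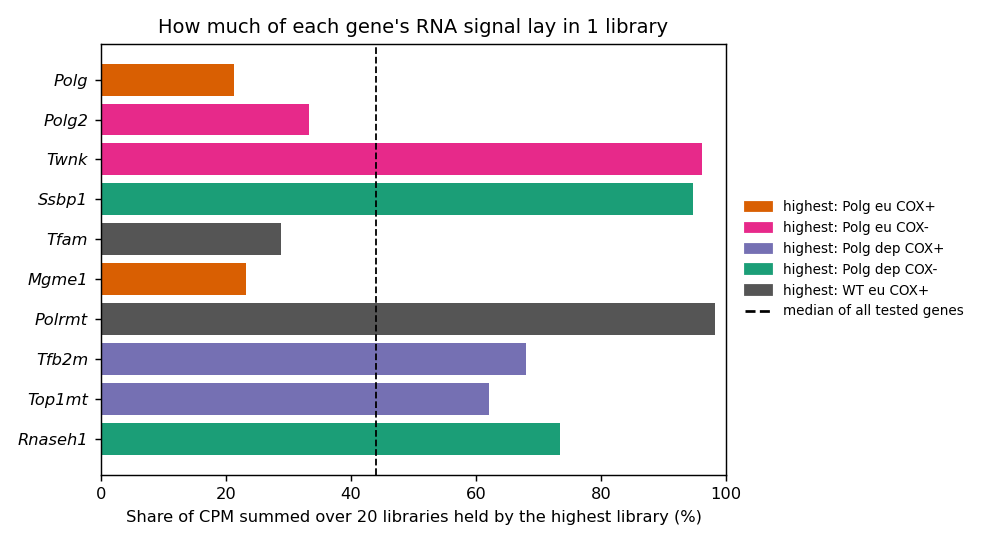
Share of each gene's CPM, summed over 20 libraries, that lay in its highest library, in percent; bar colour gives the group of that library and the dashed line the median of all tested genes, 44.0%. Polrmt, Twnk and Ssbp1 are above 90% and Polg is lowest at 21.4%.

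Compared between genes per kb of gene span, WT medians were between 0.0393 and 0.185 CPM. The WT libraries of most genes overlapped, though those of Mgme1 (0.0212 to 0.0526 CPM per kb) lay below those of Twnk (0.0536 to 0.580 CPM per kb). The medians were 0.185 CPM per kb for Rnaseh1, 0.181 for Polg2, 0.169 for Polrmt, 0.139 for Polg, 0.127 for Tfam and 0.0829 for Twnk. Tfb2m had 0.0642, Top1mt 0.0623, Ssbp1 0.0443 and Mgme1 0.0393 CPM per kb, so Polg ranked 4 of 10 in WT as counted. Its even counts, of which the origin is not given, bear on this rank and on every level of Polg set against another gene. In the 16 mutant libraries Polg was first, with a median of 1.11 CPM per kb, and the partners had medians of 0.0163 (Rnaseh1) to 0.0987 (Twnk). Span length was used because the table gives no exon length.

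Over 9 RNA comparisons, the members passed in 1, and there only Polrmt. In the mean of the 4 mutant groups against WT, 1 of 10 members was called, lower in mutants, against 6.76% of all tested genes (1923 of 28446), all of which were lower in mutants. Of those 1923 genes, 1663 or 86.5% had over 50% of their summed CPM in 1 WT library, as Polrmt did. No member was called by edgeR in the other 8 comparisons. The percentage of all genes called in them was 1.24% for depressive against euthymic averaged over COX classes, and 0% in the other 7. At an unadjusted p under 0.05, by contrast, members numbered 2 in euthymic COX+ mutants against WT, 2 and 4 for COX- against COX+ in euthymic and in depressive mutants, and 5 for the average of those. They numbered 0 and 2 for depressive against euthymic in COX+ and in COX- mutants, 2 for their average, 3 for the interaction and 3 for all mutants against WT. The shares of all genes at that p were 14.9% to 22.8%. DESeq2 called 1 member each in euthymic COX+ mutants against WT (Polg), in all mutants against WT (Polg) and in 3 comparisons among mutants (Top1mt). Over all 28446 genes DESeq2 called 1495 and 1203 in those against WT and 2224 to 2615 in those 3 among mutants, so that 1 member of 10 is near the share of all genes.

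The direction of the members' changes was mixed. The median log2 change of the 10 members was -0.28 for all mutants against WT (all genes 0.10) and -1.77 for euthymic COX+ mutants against WT (all genes -0.01). For COX- against COX+ averaged over states it was 0.60 (all genes -0.04), and for depressive against euthymic averaged over COX classes it was 0.21 (all genes -0.06). In the last 2 comparisons 6 members had a positive and 4 a negative value, and in all mutants against WT 4 were positive and 6 negative. In euthymic COX+ mutants against WT 3 were positive and 7 negative. The comparisons with WT share the WT libraries, and those averaged over states or classes share libraries with their parts.

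**Figure D4:**
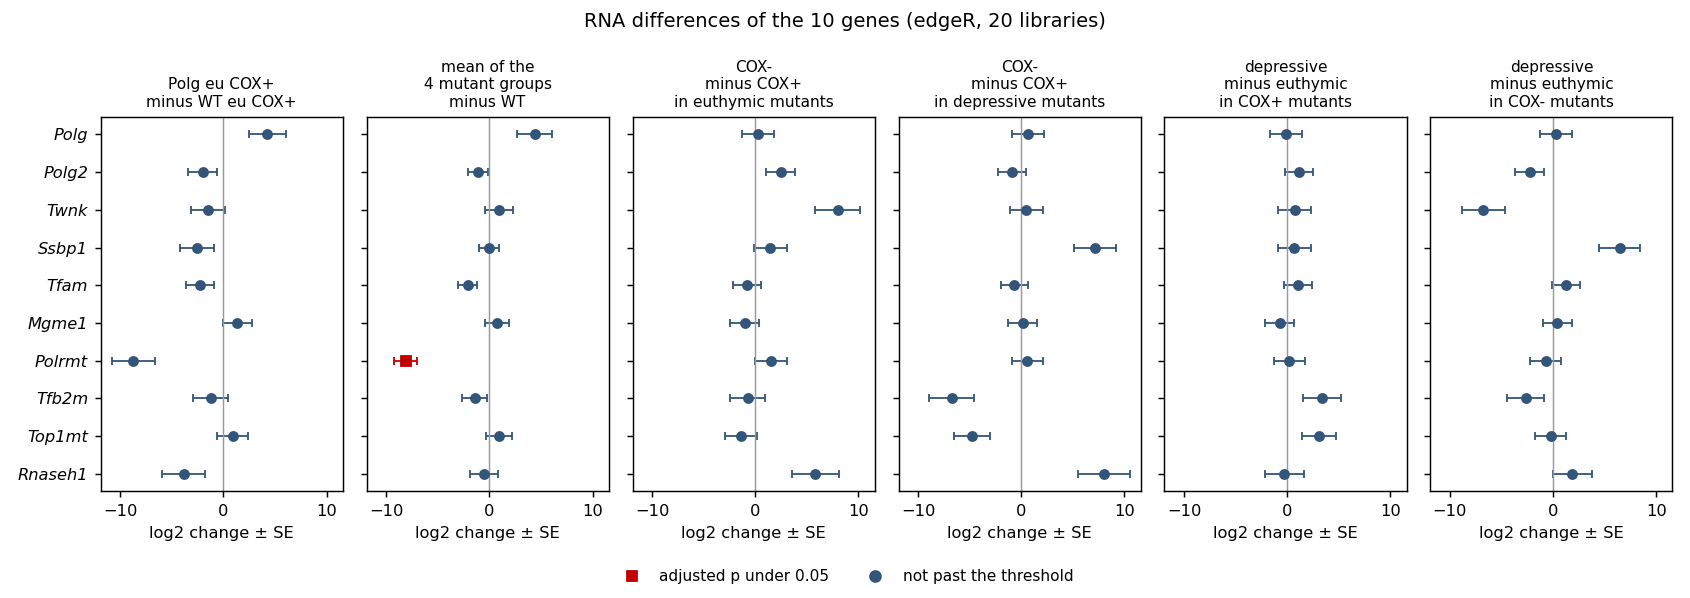
log2 changes of the 10 genes with SE in 6 of the RNA comparisons, from the edgeR fit of 20 libraries; a red square marks an adjusted p under 0.05. Polrmt in all mutants against WT, at -8.12, is the only red square, and Polg has 4.41 there with an SE of 1.70.

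The genes whose RNA pattern was most like that of Polg over the 20 libraries were none of its partners. The highest Pearson correlations of log2 CPM were 0.805 for Ralgapa2, a subunit of a GTPase-activating complex for Ral proteins, 0.744 for the predicted gene Gm5149 and 0.716 for Abhd5, a co-activator of triglyceride breakdown. The members ranged from -0.27 (Rnaseh1) to 0.39 (Twnk). These are the highest of 28446 genes over libraries that share group and depth differences, and they are given as a description.

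At the chromatin level, peaks inside Polg had higher values in both mutant libraries than in both WT libraries of PVT, while the values over its promoter overlapped in ATAC. No difference passed by edgeR. The ATAC peak over the promoter (chr7:79466096-79466520) had 27.4 and 23.0 CPM in mutants and 25.5 and 24.8 CPM in WT, with a log2 change of -0.01 (SE 0.32). That peak, like the other Polg peaks near the start, also lies within 5 kb of n-TRtcg5. A second ATAC peak, 12.3 kb downstream of the start within the Polg span and also within 5 kb of Fanci (chr7:79453797-79454119), had 23.2 and 11.8 CPM in mutants and 2.87 and 0.741 CPM in WT. Those are 90 and 106 counts in mutants against 23 and 2 in WT, and the groups did not overlap. Its log2 change was 3.05 (SE 0.63, adjusted p = 0.704 over 87600 peaks in edgeR), and DESeq2 gave 3.10 (adjusted p = 0.0463). Leaving out each library in turn gave 2.54 to 4.48.

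H3K27ac in PVT had a peak at the same place. At 12.5 kb (chr7:79453362-79454212) it had 13.3 and 14.6 CPM in mutants and 3.77 and 4.57 CPM in WT, with a log2 change of 1.74 (SE 0.47, adjusted p = 0.556). DESeq2 gave 1.78 (adjusted p = 5.82e-05), and leaving out each library gave 1.61 to 1.89. At 6.2 kb (chr7:79459447-79460701) the values were 9.10 and 9.69 CPM in mutants and 0.245 and 2.49 CPM in WT, a log2 change of 2.79 (SE 1.16, adjusted p = 0.645). At 14.7 kb they were 4.55 and 2.45 CPM in mutants against 0.808 and 1.12 CPM in WT, and in the peak at the start 2.80 and 7.15 CPM against 2.47 and 2.77 CPM. Both mutant libraries thus lay above both WT libraries in all 4 Polg peaks of this table, an order that 22.6% of its tested peaks showed.

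The other regions also had broad H3K27ac peaks over the same stretch of Polg. In COR the peak centred at 11 kb (chr7:79453677-79456900) had 22.0 and 41.4 CPM in mutants and 0.0112 and 14.9 CPM in WT, with a log2 change of 2.09 (SE 2.02). In CP the peak at 11.4 kb (chr7:79453538-79456230) had 57.6 and 109.7 CPM in mutants and 47.3 and 15.3 CPM in WT, with a log2 change of 1.42 (SE 1.77). In NAC the peak at 10.2 kb (chr7:79455131-79457107) had 22.0 and 5.66 CPM in mutants and 2.78 and 0 CPM in WT, with a log2 change of 3.29 (SE 3.64). Mutants were above WT in each of the 3, and none passed. A NAC peak at 14.6 kb had 20.6 and 17.9 CPM in mutants and 0 in both WT libraries. A CP peak at 16.3 kb had 37.3 and 9.60 CPM in mutants and 0 in both WT libraries. The medians of all tested peaks were themselves at a log2 change of 0.66 in CP and 1.09 in NAC, against 0.10 in COR and 0.00 in PVT and ATAC, so changes in CP and NAC stand on a raised base.

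Not every Polg peak was higher in mutants. The COR peak over the promoter (chr7:79465782-79466926) had 2.03 and 0 CPM in mutants and 8.69 and 32.9 CPM in WT, a log2 change of -4.36 (SE 2.60, adjusted p = 0.779). A CP peak at 2.6 kb had 0 CPM in both mutants and 11.6 and 0.646 CPM in WT.

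**Figure D5:**
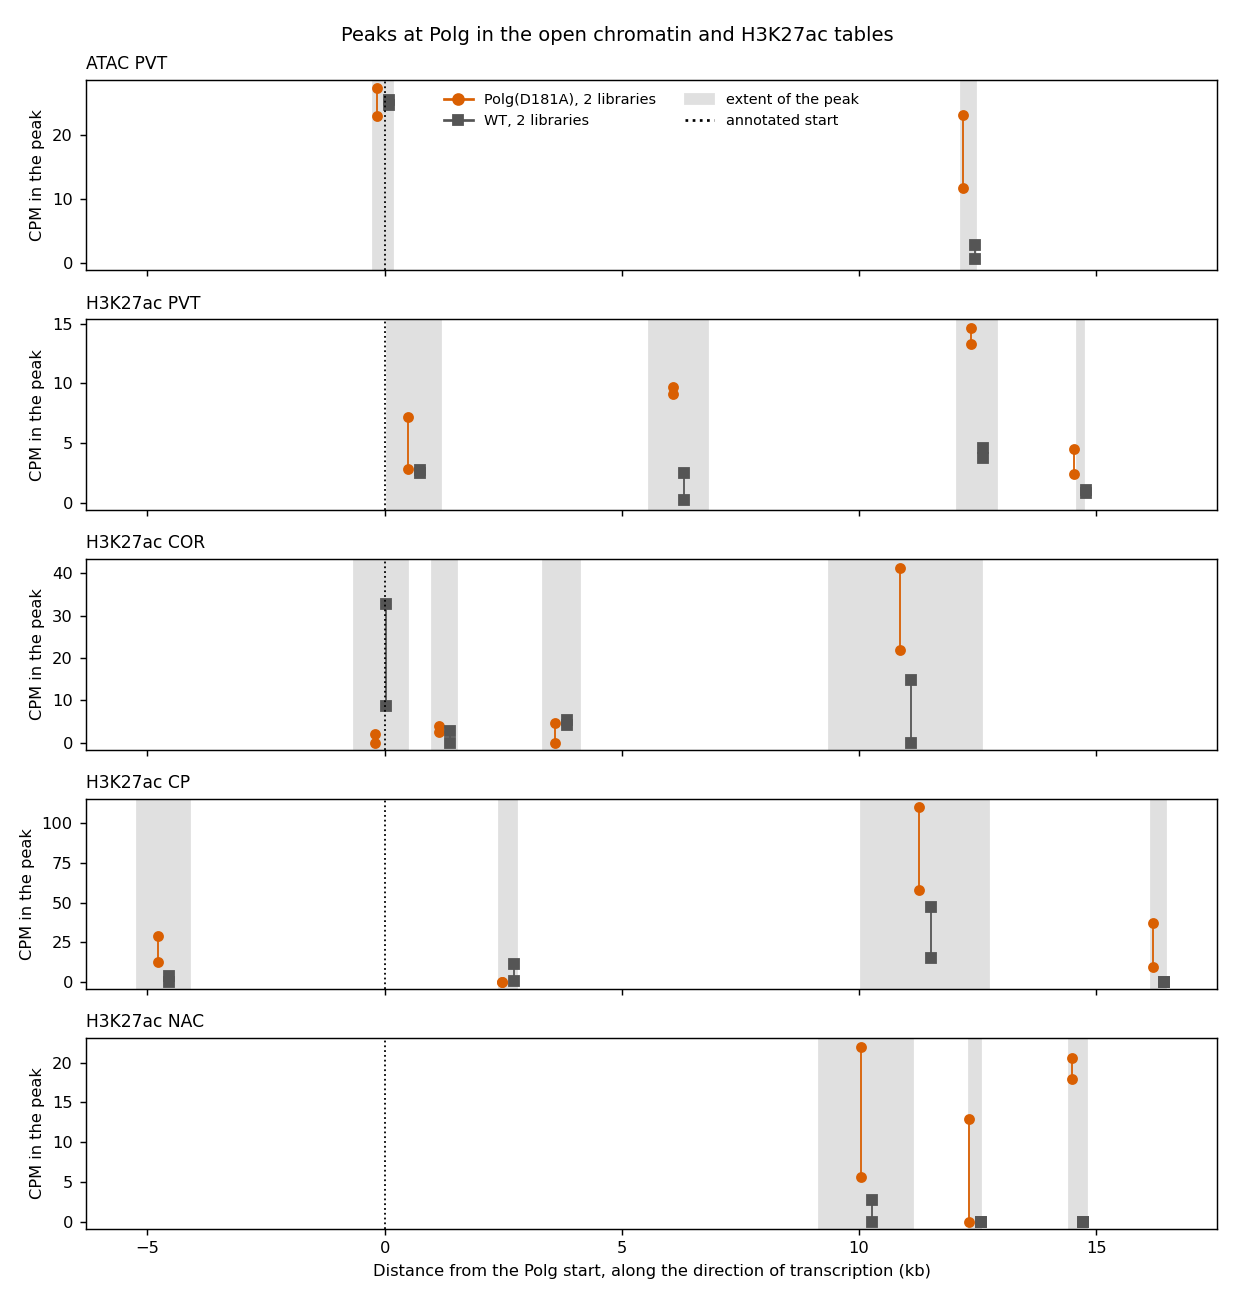
Peaks at Polg in the 5 chromatin tables, drawn by distance from the annotated start in kb along the direction of transcription; the height is CPM in the peak for each library, with points set 0.12 kb to either side of the peak centre so that they do not hide each other. Between 10 and 15 kb the mutant libraries are the higher ones in most tables, while in the ATAC peak at the start the genotypes overlap.

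No member peak passed in any table. edgeR called 0 of the 16, 22, 22, 10 and 17 tested member peaks in ATAC, PVT, COR, CP and NAC, where the share of all tested peaks called was 0.00114%, 0%, 0%, 0% and 0.00476%. At an unadjusted p under 0.05 they numbered 2, 1, 1, 1 and 1, where 6.13%, 8.09%, 9.29%, 6.69% and 1.60% of all tested peaks had such a p. DESeq2 called 1, 1, 1, 4 and 1 member peaks, and over all tested peaks 3 of 87600, 12261 of 121536, 21623 of 123573, 20977 of 79535 and 1457 of 105058. The calls in ATAC, PVT and NAC were Polg peaks and that in COR a Polg2 peak, all higher in mutants. In CP only the Polg peak at 16.3 kb was higher. The lower ones were the Polg peak at 2.6 kb, the Polrmt peak inside the gene and a Twnk peak toward Lzts2. That Twnk peak had 0 CPM in both mutants and 6.09 and 10.0 CPM in WT. Both mutant libraries lay above both WT libraries in 5 of 16 member peaks in ATAC (20% of all tested peaks), 8 of 22 in PVT (22.6%) and 6 of 22 in COR (24.8%). They did so in 4 of 10 in CP (32.3%) and 7 of 17 in NAC (28.5%). The opposite order held in 0 of 16 (20.8%), 5 of 22 (24.1%), 4 of 22 (19.7%), 3 of 10 (11.2%) and 3 of 17 (10.2%). Of the 30 peaks with mutants above WT, 11 belonged to Polg. Polg had 2, 4, 4, 4 and 3 peaks in ATAC, PVT, COR, CP and NAC, not all of them tested.

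Over the partners' promoters the ATAC values of the genotypes overlapped in most cases. ATAC peaks at the promoter had 27.4 and 22.2 CPM in mutants against 26.2 and 26.7 CPM in WT for Twnk, and 14.5 and 21.5 against 25.4 and 20.7 CPM for Polg2. Those of Tfam had 29.4 and 28.5 CPM in mutants against 29.5 and 19.3 CPM in WT, and those of Polrmt 22.7 and 25.6 against 23.7 and 17.04 CPM. For Tfb2m they were 36.7 and 24.4 CPM in mutants against 36.0 and 31.9 CPM in WT, and for Mgme1 47.3 and 18.3 against 35.8 and 18.9 CPM. The genotypes overlapped at each of these 6 genes, and their log2 changes ran from -0.35 (SE 0.36, Polg2) to 0.23 (SE 0.34, Polrmt). Ssbp1 was the partner whose promoter values did not overlap, at 19.6 and 15.9 CPM in mutants against 12.2 and 10.4 CPM in WT (log2 change 0.63, SE 0.40, adjusted p = 0.798). The peaks at the ends of the Top1mt and Rnaseh1 spans had 32.5 and 25.9 against 26.1 and 21.9 CPM, and 16.01 and 13.3 against 10.99 and 19.3 CPM.

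The H3K27ac peak with the most counts in PVT lay near or beyond an end of the gene for each partner. For Twnk it covered chr19 downstream of the gene, within 5 kb of Lzts2, and had 23.7 and 33.8 CPM in mutants and 37.2 and 43.9 CPM in WT (log2 change -0.50, SE 0.29, adjusted p = 0.851). That of Tfb2m, shared with Cnst, was likewise below WT in both mutants, at 17.99 and 18.1 against 21.6 and 23.1 CPM. Top1mt, at 14.2 and 18.4 against 11.7 and 15.1 CPM, overlapped between genotypes. Polrmt's lay toward Hcn2, with 17.7 and 8.18 CPM in mutants and 11.1 and 15.4 CPM in WT. Mgme1 (8.73 and 11.5 against 4.40 and 6.63 CPM, shared with Snx5) and Ssbp1 (8.34 and 11.5 against 8.07 and 6.68 CPM) had mutants above WT in their promoter peaks. Polg2 had 9.03 and 1.66 CPM in mutants and 4.35 and 8.29 CPM in WT in a peak that Ddx5 shares. That of Rnaseh1 had 4.46 and 6.11 CPM in mutants and 2.50 and 5.55 CPM in WT. For Tfam it was set by 1 WT library, with 0 and 0.169 CPM in mutants and 8.16 and 0.0308 CPM in WT. A Tfam peak with nearly as many counts, before the start (chr10:71238737-71239563), had the opposite order, with 4.90 and 5.05 CPM in mutants and 2.26 and 1.88 CPM in WT. None passed the test.

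In the other regions the partners' peaks with the most counts were more uneven, and many libraries stood at 0. In COR, Mgme1 had 3.39 and 6.47 CPM in mutants against 12.97 and 27.1 CPM in WT over its promoter, and Top1mt had 8.505 and 5.73 against 12.5 and 33.7 CPM at its span end. The opposite order was seen in COR for Tfb2m, with 7.19 and 17.6 CPM in mutants against 5.57 and 2.48 CPM in WT, for Ssbp1, with 24.3 and 4.36 against 2.73 and 0 CPM, and for Polg2, with 7.16 and 3.92 CPM in mutants and 0 in both WT libraries. Twnk (3.86 and 44.7 against 32.0 and 25.1 CPM), Polrmt (7.33 and 14.3 against 13.2 and 28.9 CPM), Tfam (8.19 and 5.07 against 2.36 and 14.9 CPM) and Rnaseh1 (0 and 10.8 against 3.06 and 7.03 CPM) overlapped between genotypes there. In CP, Polrmt had 0 in both mutants against 35.1 and 3.63 CPM in WT in a peak inside the gene, while Tfb2m had 18.8 and 59.4 against 10.4 and 0 CPM in a peak beyond its start. Top1mt had 25.2 and 13.6 CPM in mutants against 16.9 and 0 CPM in WT there. Of the rest in CP, Polg2 and Tfam had counts in WT library 1 alone (13.7 and 9.14 CPM), Rnaseh1 in mutant library 2 alone (21.1 CPM), and Twnk had 0 and 15.6 CPM in mutants against 0.0916 and 0 CPM in WT. Ssbp1 and Mgme1 had no CP peak. In NAC, Mgme1 had 0 and 3.95 CPM in mutants against 40.4 and 8.61 CPM in WT over its promoter, so the order seen in COR was present again. Twnk had 5.27 and 2.40 against 8.22 and 29.9 CPM in its NAC peak toward Lzts2, also lower in both mutants, as was Rnaseh1 with 1.26 and 0 against 6.78 and 3.38 CPM. Polrmt had the opposite order, with 4.79 and 6.52 CPM in mutants and 0 in both WT libraries. Tfam (10.5 and 3.35 against 5.59 and 0 CPM), Tfb2m (0 and 7.12 against 25.2 and 0 CPM), Ssbp1 (0 and 10.8 against 7.19 and 0 CPM) and Top1mt (0 and 15.3 against 1.49 and 0 CPM) overlapped in NAC, where Polg2 had no peak. The smallest adjusted p over the members' peaks was 0.535 in COR, 0.373 in CP and 0.998 in NAC.

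Summed per gene over its peaks, the signal of Polg was higher in both mutants than in both WT libraries in 4 of 5 tables, without passing the test. The ATAC sum of Polg was 51.0 and 36.3 CPM in mutants and 28.2 and 26.5 CPM in WT (log2 change 0.66, SE 0.28, adjusted p = 0.999). Its H3K27ac sum was 30.7 and 36.8 CPM in mutants against 7.74 and 11.4 CPM in WT in PVT (log2 change 1.82, SE 1.27), and 111.8 and 103.5 against 46.0 and 20.4 CPM in CP (1.70, SE 1.26). In NAC it was 37.6 and 33.1 CPM in mutants against 2.34 and 0 CPM in WT (4.83, SE 1.45, adjusted p = 0.756). COR was the exception, with 31.2 and 51.1 CPM in mutants and 15.9 and 53.6 CPM in WT (0.24, SE 1.23). That order in 4 tables was one which 0.921% of the 17268 genes with sums in all tables showed in at least 4 (0.0579% in all 5). Of the other 6 members with such sums, Polrmt and Tfb2m had it in 2 tables, Tfam and Top1mt in 1, and Twnk and Rnaseh1 in 0. Averaged over the 4 regions, the H3K27ac change of Polg was 2.15 (SE 0.64, adjusted p = 0.164). It was 2.32 without WT library 1 of CP and 4.50 without WT library 1 of NAC. Each of those fits leaves 1 WT library in that region, which cannot show the spread of WT there. In NAC the remaining WT library held 0 CPM over the Polg peaks. The test of a different genotype effect between regions gave an adjusted p of 0.740 for Polg.

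Among the 6 partners with sums in all 5 tables, Twnk alone had both mutants below both WT libraries, in 2 tables. Of the 17268 genes with sums in all tables, 21.4% had that order in PVT and 17.5% in NAC. Mgme1, which has no CP peak, had that order in COR. The Twnk sums were 24.5 and 37.3 CPM in mutants and 41.0 and 48.4 CPM in WT in PVT. Most of the PVT sum came from the peak downstream of the gene (chr19:45013823-45019129), within 5 kb of Lzts2. In NAC the Twnk sums were 10.3 and 5.83 against 14.6 and 37.7 CPM. The ATAC sum of Twnk was 43.0 and 42.7 CPM in mutants and 46.7 and 38.4 CPM in WT. Its averaged H3K27ac change was -0.65 (SE 0.80, adjusted p = 0.875). Polrmt had 10.1 and 5.91 CPM in mutants and 0 in both WT libraries of NAC, with 34.0 and 18.01 CPM in mutants against 23.5 and 38.6 CPM in WT in PVT. For the H3K27ac sums edgeR called none of the 7 tested members in any region, where 0.00547% of genes were called in PVT, 0.0547% in COR, 2.19% in CP and 0.00547% in NAC. None was called in the average over regions (0.591% of genes) or in the test between regions (0.328%), and 0 of 10 in ATAC (0.00687%). At an unadjusted p under 0.05 the members numbered 0, 0, 2 and 2 in PVT, COR, CP and NAC, 3 in the average, 1 between regions and 1 in ATAC. The shares of all genes at that p were 1.19%, 4.57%, 16.9% and 5.47% in those regions. They were 14.1% in the average, 9.37% between regions and 4.49% in ATAC. DESeq2 called Rnaseh1 and Tfam in CP, Polg and Polrmt in NAC, and Polg, Polrmt and Rnaseh1 in the average, where it called 3129, 893 and 3077 of all 18269 genes in CP, in NAC and in the average. The median change of the members was 0.29 in ATAC (all genes 0.00), -0.17 in PVT (all genes -0.01) and -0.09 in COR (all genes 0.01). It was 0.71 in CP (all genes 0.20), 1.57 in NAC (all genes 0.14) and 0.99 in the average over regions (all genes 0.11). The last 3 include fitted values of members with a genotype at 0, namely Tfam and Rnaseh1 in CP and Polrmt in NAC, which depend on the prior count.

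Camk2a, a kinase gene of forebrain neurons, was set beside Polg because its promoter drives the transgene. Its ATAC sum was 227.6 and 244.9 CPM in mutants and 115.2 and 81.0 CPM in WT, and it was called (log2 change 1.26, SE 0.18, adjusted p = 0.00179), 1 of 2 genes of 29116. In H3K27ac the sums were 871.6 and 970.1 CPM in mutants against 437.3 and 468.4 CPM in WT in NAC (1.02, adjusted p = 0.828), and 729 and 917 against 632 and 327 CPM in COR (0.78). In PVT they were 245.2 and 184.9 CPM in mutants and 286.7 and 279.0 CPM in WT (-0.40), so the order differed between ATAC and H3K27ac in the same region. The tables do not separate transgene sequence from the endogenous genes, and its part in the Camk2a and Polg values was not tested.

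Genes that work around this machinery were read by 5 lists chosen by function. For all mutants against WT, 0 of 15 tested genes of deoxynucleotide supply rose and 1 fell: Sucla2, a succinyl-CoA ligase subunit whose loss causes mitochondrial DNA depletion in humans (-3.52, SE 0.98, adjusted p = 0.0201). Of 9 nucleoid and protease genes 1 fell, Hspd1, the matrix chaperonin (-5.95, SE 1.10, adjusted p = 0.000485). Of 23 genes of mitochondrial transcription and RNA processing 2 fell: Fastk, a regulator of mitochondrial RNA (-4.53, SE 0.91, adjusted p = 0.00118), and Slirp, the partner of LRPPRC in mRNA stability (-5.56, SE 1.19, adjusted p = 0.0021). None of 12 genes of other replication and repair and none of 13 nuclear regulators was called, and among those of smallest p were Exog, a mitochondrial nuclease (3.88, adjusted p = 0.288), and Ppargc1a, a co-activator of mitochondrial biogenesis (-2.09, adjusted p = 0.214). These shares are to be read against the 6.76% of all genes called, all lower. The list medians were -0.72, 0.66, 0.12, 1.38 and -0.58 in the order given, against 0.10 for all genes. No gene of the 5 lists was called in the other 8 RNA comparisons.

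As with Polrmt, 3 of these 4 genes had most of their reads in 1 WT library: the highest library held 62.6% of the summed CPM of Sucla2, 76.99% of Hspd1, 86.8% of Slirp and 47.9% of Fastk. Sucla2 had 1.35 to 145.9 CPM in mutants and 27.7, 92.6, 1160 and 15.2 CPM in WT. Hspd1 had 0.107 to 41.9 CPM in mutants (median 0.407) and 8.72, 233.1, 0.781 and 7.71 CPM in WT, and Slirp had 0.0108 to 4.19 CPM in mutants and 0.161, 65.4, 1.14 and 1.21 CPM in WT. Fastk was spread more evenly, with 0.0108 to 0.433 CPM in mutants and 5.82, 3.502, 0.071 and 0.722 CPM in WT, so that 3 of 4 WT libraries lay above every mutant library. In the chromatin sums, none of the lists' genes was called in ATAC, in PVT or in NAC. Of all genes, 0.0547% were called in COR and 2.19% in CP. Abat, a transaminase also needed for mitochondrial nucleotide supply, was called higher in COR (adjusted p = 1.76e-06), with 14.9 and 15.05 CPM in mutants and 0 in both WT libraries, while its sums in PVT were 152.3 and 160.4 against 155.3 and 164.1 CPM. Dna2, a nuclease-helicase, had 36.8 and 25.0 CPM in mutants and 0 in both WT libraries of CP (adjusted p = 0.0168), but 4.31 and 11.03 against 22.4 and 36.3 CPM in COR. Clpp, a matrix protease subunit, was called in CP as well (adjusted p = 0.0167), with 1.51 and 10.0 CPM in mutants and 0 in both WT libraries. It had the opposite order in COR, at 11.1 and 13.3 against 30.8 and 24.8 CPM, and in PVT, at 37.4 and 33.4 against 54.7 and 41.1 CPM. In the average over regions, where 0.591% of genes were called, Abat (adjusted p = 6.04e-05) and Dna2 (adjusted p = 0.0481) were called higher. Abat was also called in the test between regions (adjusted p = 3.05e-05, 0.328% of genes). These fits include the regions with both WT libraries at 0.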

How the data were processed

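The authors deposited 6 tables of raw read counts: genes for RNA, and peaks for ATAC and for H3K27ac in each region. Per the submitters' processing notes the tools were featureCounts, Subread, STAR, HOMER and DESeq2 with mm10, without versions. Whether exons or whole spans were counted, and whether strand was used, is not given in the sources used here. All H3K27ac and ATAC libraries with a genotype were used, and the 4 input libraries, which mix genotypes, were not used. RNA columns of a group share 1 name, so library numbers there follow column order only.

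The tables were tested as deposited with edgeR 4.0.16 in R 4.3.3 (quasi-likelihood test, TMM, filterByExpr, robust dispersion, 2-sided, Benjamini-Hochberg over all tested features, called at an adjusted p under 0.05). RNA was fitted in 1 model of 20 libraries in 5 groups. Each chromatin table was fitted alone per peak. Peak counts were also summed per gene over the span extended by 5 kb, in 1 model of 16 libraries for H3K27ac, restricted to genes with a peak in all 4 regions, which left 7 members. Neighbouring genes can share a peak. Alternatives were DESeq2 1.42.0, limma 3.58.1 (voom), other scalings and filters, a replicate block and each library left out. In chromatin, leaving out a library left 1 of that genotype in its region, which cannot show the spread of that group. Each procedure was tested on simulated data. The simulated RNA counts were less spread than these libraries, so that test does not show how the fit performs at a coefficient of variation of 1.36. Spread between libraries limits precision at these depths. Counting error adds to it where a library holds few reads, as in the ATAC peak inside Polg with 2 counts in WT library 2.

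All 10 members are named, with called peaks and otherwise the peak with the most counts in a table; of each list up to 4 called genes are named, otherwise up to 2 of smallest p, and for likeness to Polg the 3 genes of highest Pearson r (log2 CPM, prior count 2). The members, lists and motifs were chosen with earlier results of these data known. Same-numbered chromatin libraries did not deviate together.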

Additional observations from a re-analysis of the deposited data

Results flagged for a closer look

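Within the groups of 4 RNA libraries, 5 of 50 gene-by-group sets had a single library far from the others by Dixon's criterion on log2 CPM (prior count 2). Chance gives this in about 1 of 20 sets. On that scale Polrmt in WT and Twnk in euthymic COX- mutants, both extreme in CPM, were not among them. The values below are in CPM. Ssbp1 had 129.7 CPM in library 3 of the depressive COX- mutants, against 0.191 to 0.627 CPM in the other 3. Tfam had 1.26 CPM in library 2 of the euthymic COX+ mutants, against 0.147 to 0.197 CPM. The remaining 3 lay on the low side. Polrmt had 0.0809 CPM in library 2 of the euthymic COX+ mutants, against 0.753 to 1.07 CPM. Top1mt had 0.149 CPM in library 4 of the euthymic COX- mutants, against 1.16 to 1.30 CPM. Polg had 0.946 CPM in WT library 2, against 3.02 to 3.69 CPM in the other WT libraries.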

How the results depend on the processing

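In RNA, the count of members called moved from 0 to 1 under DESeq2 for euthymic COX+ mutants against WT (Polg) and for COX- against COX+ in depressive mutants, depressive against euthymic in COX+ mutants and COX- against COX+ averaged over states (Top1mt each). With no filter on low counts it became 1 for COX- against COX+ in euthymic mutants (Twnk), where 458 of 50926 genes were called. It became 2 averaged over states with that setting (Rnaseh1 and Twnk). With DESeq2 size factors in edgeR, a stricter filter, or without genes over 1% of a library, it became 1 for the average (Rnaseh1). The counts over all genes for the average are given with Rnaseh1 above. For all mutants against WT, voom called 0 members, and leaving out each library gave 0 to 1, with 0 without WT library 3. The other 8 RNA counts were 0 whichever library was left out.

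In the peaks, DESeq2 called 1 member peak in ATAC, 1 in PVT, 1 in COR, 4 in CP and 1 in NAC, where edgeR called 0. In the peak sums, DESeq2 called 2 members in CP, 2 in NAC, 3 in the average over regions and 1 by region (Polrmt). Calls in peaks and peak sums also changed when libraries were left out. Such a fit has a single library of 1 genotype in a region, so member calls from it are not listed. The cause was not tested.

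Over all features the tools differed more: for all mutants against WT edgeR called 1923 genes, DESeq2 1203 and voom 0, and in PVT H3K27ac peaks edgeR called 0 and DESeq2 12261. Omitting CP WT library 1 raised the called peaks of CP to 5436.

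No paired analysis was possible because RNA columns carry no replicate number. In chromatin, same-numbered libraries shared a number only: the correlation of their deviations was -0.0514 to 0.0168 over the 5 tables, and the fit with the replicate block called 0 members in each table, as without the block. Single gene values were recomputed under each alternative: of these pairs of a value and an alternative, 2192 of 2341 in RNA, 708 of 773 in peaks and 1004 of 1064 in peak sums had the same direction and side of the threshold as the reported value. A further 136, 44 and 56 in RNA, peak sums and peaks were uncalled values that changed sign. In CP and NAC, many peaks had 0 counts in a library.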
